A study of Arabidopsis thaliana with 3 samples.

Results

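The miR157 family of Arabidopsis thaliana was followed in small RNA libraries of 3 genotypes. Its members were taken by name, as the count entries ath-miR157a, ath-miR157b, ath-miR157c and ath-miR157d, and no star or 3p entry of miR157 was listed in any library. These 4 entries stand among 328 miRNAs listed for cdf2, 338 for dcl1-9 and 328 for Col. The compared plants were the cdf2 mutant of CYCLING DOF FACTOR 2, the dcl1-9 mutant of DICER-LIKE1, whose shortened protein lacks the C-terminal domains that bind double-stranded RNA, and the wild type of the Columbia ecotype, Col. No treatment is named, and all were seedlings 22 days old, grown in soil under 16 h of light and 8 h of dark. Each genotype gave 1 library, so no difference between genotypes has a replicate check and no p-value is given. No messenger RNA was measured in these libraries. Neither the seedling label nor the CDF2 and DCL1 genotypes could therefore be checked in them against marker transcripts or against the mutated genes.

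DCL1 is the nuclear RNase III enzyme that cuts miRNAs out of their hairpin precursors in plants, with the RNA-binding protein HYL1 as its partner. miR157 is a close relative of miR156, and both pair with messenger RNAs of SQUAMOSA PROMOTER BINDING PROTEIN-LIKE (SPL) transcription factors. In Arabidopsis the SPL factors promote the change from juvenile to adult leaves and flowering, and SPL9 activates transcription of MIR172.

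The mature sequences carry the difference between the members, so they are shown first, with the seed (bases 2 to 8) in capitals. They come from the RefSeq annotation of TAIR10.1, in which all 4 members were matched by name. The sequences of miR156a and miR156h, from the miR156 family, are shown for comparison.
miR157a, miR157b and miR157c: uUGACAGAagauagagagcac
miR157d: uGACAGAAgauagagagcac
miR156a: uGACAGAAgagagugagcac
miR156h: uGACAGAAgaaagagagcac
The miR157a, miR157b and miR157c matures are 21 bases long and identical. The miR157d mature is 20 bases long and matches the last 20 bases of the others with 0 differences, so it lacks only their first U. That missing base moves the seed by 1 position. The seed UGACAGA of miR157a to miR157c was found in 3 of 427 annotated mature miRNAs, and these 3 are the members themselves. The seed GACAGAA of miR157d was found in 11 of 427, which are miR157d and 10 members of miR156. Counted from the 5′ end, miR157d differs from miR156a by U11G and A14U, and from miR156h by U11A alone (miR157d base first).

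The loci show which bases surround these matures in each precursor. The next lines give the mature in capitals with 10 bases of precursor strand on either side.
MIR157a: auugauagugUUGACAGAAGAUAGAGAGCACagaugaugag
MIR157b: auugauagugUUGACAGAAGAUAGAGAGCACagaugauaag
MIR157c: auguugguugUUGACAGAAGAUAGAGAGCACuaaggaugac
MIR157d: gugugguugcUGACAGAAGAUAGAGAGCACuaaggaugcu
In TAIR10.1 the matures lie at chr1:24913276-24913296 on the minus strand (miR157a), chr1:24921104-24921124 on the plus strand (miR157b), chr3:6244673-6244693 on the minus strand (miR157c) and chr1:18026989-18027008 on the minus strand (miR157d). No annotated protein-coding gene overlaps any of the 4 precursors. MIR157a and MIR157b are neighbours, 7786 bases apart on opposite strands, and their flanks are identical at 10 of 10 bases before and 9 of 10 after the shared sequence. MIR157c and MIR157d match at 6 of 10 bases before it and 8 of 10 after it. The other pairs match at 4 of 10 before it and 4 to 6 of 10 after it. At the MIR157d locus the base just before the mature is C, so that the locus reads U1C against the 21-base miR157a and does not encode it. The 20-base sequence of miR157d occurs at 4 places in the genome, which are the 4 MIR157 loci, and the 21-base sequence at 3. A read of the 20 bases alone can therefore come from any member, and how such reads were assigned is not given in the sources used here.

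The annotated precursors are 98 bases long for MIR157a, 132 for MIR157b, 217 for MIR157c and 221 for MIR157d. The 5p and 3p matures are 50 bases apart in MIR157a and MIR157b, and 125 in MIR157c. For MIR157d no 3p mature is annotated in the table used here.

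Target sites were searched in 17 annotated SPL genes, allowing at most 3 mismatches to miR157d or to miR156a, and 11 genes held one. The sites show where miR157 and miR156 can pair. A G:U pair was counted as a mismatch. The 4 distinct sequences follow 5′ to 3′ on the messenger strand, with bases mismatched to miR157d in capitals.
SPL9, also SPL2, SPL6, SPL10, SPL11, SPL13A, SPL13B and SPL15: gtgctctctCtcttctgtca
SPL4: CtgctctctCtcttctgtca
SPL5: CCgctctctCtcttctgtca
SPL3: TtgctTActCtcttctgtca
The site of SPL9 and its 7 companions lies in the coding sequence (SPL9, chr2:17589066-17589085, plus strand), and miR157d has 1 mismatch there, opposite its base 11. SPL4 (chr1:19807090-19807109, plus strand) and SPL5 (chr3:5140598-5140617, minus strand) hold the site in the 3′ UTR, with 2 and 3 mismatches to miR157d. In 10 of the 11 genes miR157d and miR156a have equal numbers of mismatches, though their positions differ. The mismatch in the SPL9 site lies opposite base 11 of miR157d and opposite base 14 of miR156a. The exception is SPL3 (3′ UTR, chr2:14305878-14305897, plus strand), a small SPL protein that promotes flowering, where miR157d has 4 mismatches and miR156a has 2. For each of these miRNAs, 1 of the SPL3 mismatches is a G:U pair at base 15. The extra first U of miR157a to miR157c can pair with an A after the site in 5 of the 11 genes. A match of letters is a description of sequence, and cleavage of these messenger RNAs was not measured.

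Reads were scaled by the total reads of each library to RPM, the reads of a miRNA per 1000000 reads, so that 1 read stood for 0.0810 RPM in cdf2, 0.0764 in dcl1-9 and 0.0870 in Col. Summed over entries, the tables hold 5248526 miRNA reads for cdf2, 378685 for dcl1-9 and 8833288 for Col. A read that matches several entries may be counted in each. With only the highest entry of each family, the sums were 1623741 for cdf2, 80167 for dcl1-9 and 2669903 for Col. Shares of miRNA reads and the scale of summed miRNA reads use all entries, unless the highest member is named. There were 268 miRNAs above 0 reads in cdf2, 150 in dcl1-9 and 273 in Col. The dcl1-9 values therefore rest on far fewer reads. Intervals in brackets are at 95% and cover counting error only. Reads carried no molecular identifiers and are not independent molecules. In whole seedlings, fewer cells that express a miRNA and less miRNA per cell cannot be told apart.

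miR157a, the 21-base form from chromosome 1, had 391130 reads (31673 RPM) in cdf2 and 7837 reads (599 RPM) in dcl1-9, against 636461 reads (55396 RPM) in Col. miR157b, with the same mature sequence, had 391145 reads in cdf2 and 7837 in dcl1-9, against 636463 in Col, so the counts of miR157b and miR157a differed by 15 reads in cdf2 and 0 in dcl1-9, against 2 in Col. miR157c, the same mature from chromosome 3, had 398488 reads (32268 RPM) in cdf2 and 7927 reads (606 RPM) in dcl1-9, against 648158 reads (56414 RPM) in Col. These 3 near-equal counts belong to 1 shared mature sequence and cannot be taken as independent measurements. They were the 3 highest counts of all miRNAs in cdf2 and in Col. In dcl1-9 miR157c ranked 16 and the others 17.

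miR157d, the 20-base form, stood well below them in every library. It had 37309 reads (3021 RPM) in cdf2 and 232 reads (17.7 RPM) in dcl1-9, against 48802 reads (4248 RPM) in Col. It ranked 26 in cdf2 and 27 in dcl1-9, against 25 in Col. As a share of all miRNA reads, miR157d made up 0.711% (0.704 to 0.718) in cdf2 and 0.0613% (0.0536 to 0.0697) in dcl1-9, against 0.552% (0.548 to 0.557) in Col. miR157a made up 7.45% in cdf2 and 2.07% in dcl1-9, against 7.21% in Col. By share of miRNA reads, miR157a was thus 1.03 of Col and miR157d 1.29 of Col in cdf2, and both were lower than Col in dcl1-9.

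**Figure D1:**
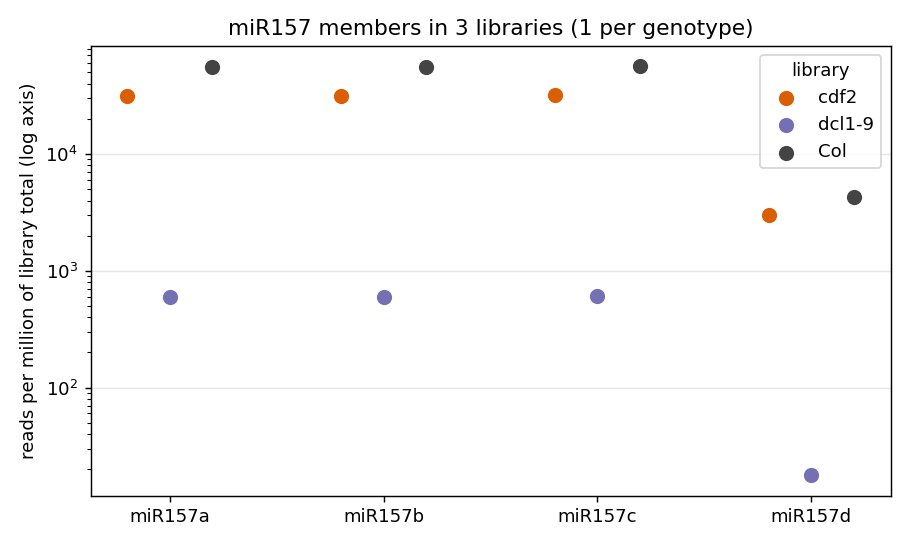
RPM of miR157a to miR157d (log axis) in the cdf2, dcl1-9 and Col libraries, 1 point per library. miR157a, miR157b and miR157c lie at equal heights, at 31673 to 32268 RPM in cdf2, 599 to 606 RPM in dcl1-9 and 55396 to 56414 RPM in Col, with miR157d below them in every library.

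In cdf2, the miR157a to miR157c counts were lower than in Col by RPM, and miR157d was less far below Col, although both directions turned with summed miRNA reads as the total. The mean of miR157a to miR157c was 0.572 of Col, or 1.75-fold lower. The single values were 0.572 (0.569 to 0.574) for miR157a, 0.572 for miR157b and 0.572 (0.570 to 0.574) for miR157c. miR157d stood at 0.711 of Col (0.702 to 0.721), or 1.41-fold lower. At a limit of 1.5-fold lower, 3 of the 4 members passed and miR157d did not, beside 37% (91) of the 246 miRNAs with more than 3 reads in cdf2 or Col. Of 284 miRNAs with any read in that pair, 38 had 3 or fewer in both libraries and were given no ratio. The call was lost for all members with TMM, DESeq2 size factors or summed miRNA reads, where 0 of 4 passed, whereas with genome-matched reads 4 of 4 passed. For the 140 miRNAs that reached 100 reads in cdf2 and Col together, the median ratio was 0.795. A smaller ratio than that of the members was found for 29 to 31 of these miRNAs in the case of miR157a to miR157c, and for 53 in the case of miR157d, so the members lay in the lower part of the distribution but not at its end.

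The scale decided the direction in cdf2. Scaled to the sum of miRNA reads, the mean of miR157a to miR157c was 1.03 of Col and miR157d was 1.29 of Col. With genome-matched reads as the total, the values were 0.326 and 0.405. With the totals of the deposited tables they were 0.600 and 0.747, with TMM 0.678 and 0.844, and with DESeq2 size factors 0.751 and 0.934. Each scale shifts the log2 ratio of every miRNA in a pair of libraries equally. Relative to total reads, that shift in cdf2 was 0.86 for summed miRNA reads, -0.81 for genome-matched reads, 0.07 for deposited totals, 0.25 for TMM and 0.39 for DESeq2 size factors. For dcl1-9 it was 4.73 for summed miRNA reads, 0.34 for genome-matched reads, 0.76 for deposited totals, 4.97 for TMM and 4.93 for DESeq2 size factors. An equal shift cannot change the order of the members, so miR157d had the higher ratio in cdf2 and the lower ratio in dcl1-9 on every scale.

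**Figure D2:**
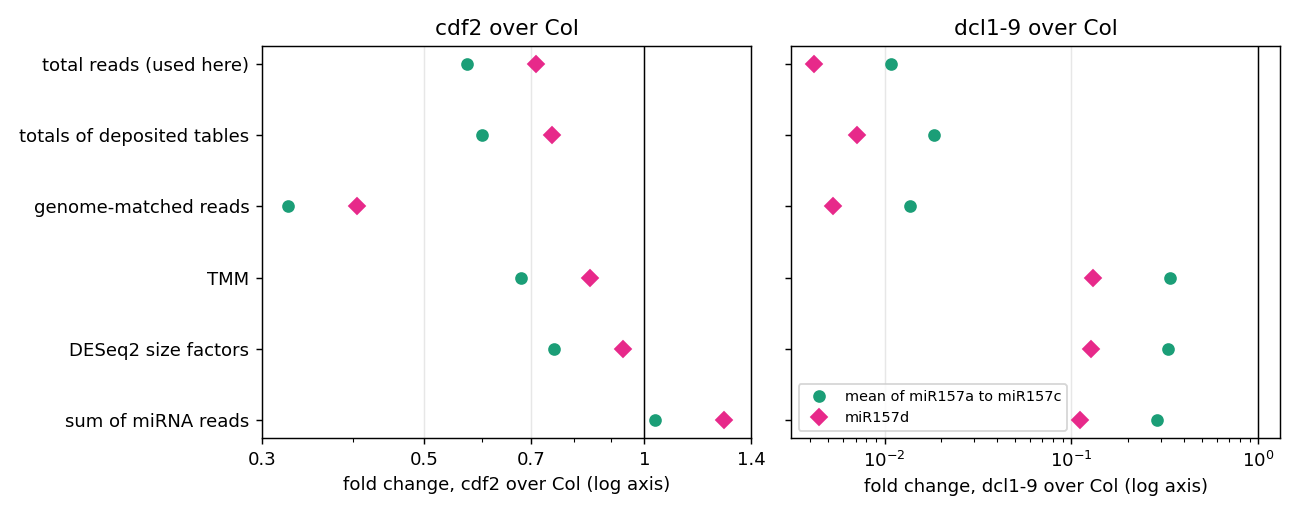
Ratio to Col (log axis) of the mean of miR157a to miR157c (circles) and of miR157d (diamonds) for cdf2 (left) and dcl1-9 (right) on 6 scales, with a line at 1. In cdf2 the miR157a to miR157c mean runs between 0.326 and 1.03 and crosses 1 only for the sum of miRNA reads, while all dcl1-9 points lie below 1.

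In dcl1-9, every member was far lower than in Col. miR157d was the lowest relative to Col on each of the 6 scales, an order that a change of scale cannot alter. miR157a was 92.5-fold lower (90.4 to 94.6) and miR157c 93.1-fold lower (91.1 to 95.2), with miR157b at the ratio of miR157a. miR157d was 239-fold lower (211 to 274). In log2 these differences were -6.53 for miR157a, -6.54 for miR157c and -7.90 for miR157d. All 4 members passed the limit of 1.5-fold lower, as did 100% of the 221 miRNAs with more than 3 reads in dcl1-9 or Col, while 41 others with reads had 3 or fewer in both libraries and were given no ratio. On the scale of total reads, the count of members is therefore the same as the background. The 4 members also passed with summed miRNA reads, DESeq2 size factors and TMM, on which 75, 71 and 70 of the 221 miRNAs were 1.5-fold lower and 107, 109 and 110 were 1.5-fold higher. Of those 221, 127 had 3 or fewer reads in dcl1-9 and were placed at a floor of 3 reads. For the 120 miRNAs that reached 100 reads in dcl1-9 and Col together the median ratio was 0.0150, with 37 of them at the floor, against 0.0108 for miR157a and 0.00418 for miR157d. For miR157d, 19 of the 120 had a smaller ratio, of which 8 were at the floor. For miR157a to miR157c, 43 to 45 had a smaller ratio, so these members lay nearer the middle of the distribution.

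**Figure D3:**
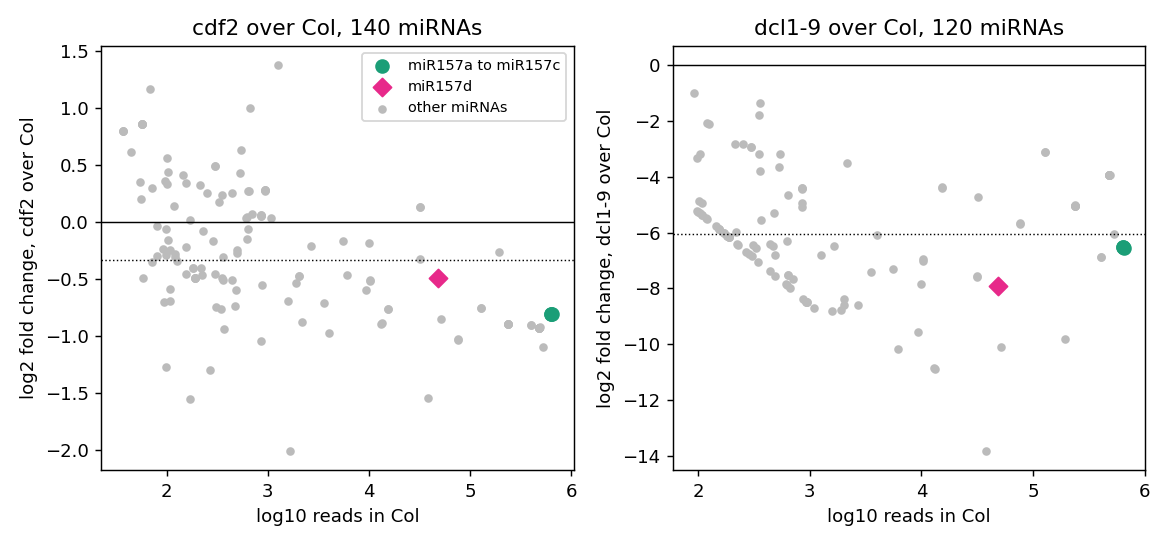
The log2 ratio to Col in RPM (vertical axis) of each miRNA with 100 or more reads in the pair of libraries against the log10 of its Col reads (horizontal axis), for cdf2 (left) and dcl1-9 (right), with a solid line at 0 and a dotted line at the median. In cdf2 miR157a to miR157c at -0.81 and miR157d at -0.49 lie below the median of -0.33, and in dcl1-9 miR157d at -7.90 lies below miR157a at -6.53 and the median of -6.06, while the miRNAs with 3 or fewer dcl1-9 reads are drawn at the floor and form a slanted line.

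The ratio of miR157d to the mean of miR157a to miR157c is free of library totals, and it differed between the genotypes in opposite directions. miR157d stood at 9.48% (9.38 to 9.58) of that mean in cdf2 and at 2.95% (2.59 to 3.36) in dcl1-9, against 7.62% (7.55 to 7.69) in Col. Put the other way, the mean of miR157a to miR157c exceeded miR157d 10.5-fold in cdf2 and 33.9-fold in dcl1-9, against 13.1-fold in Col. The ratio was 1.24 times (1.23 to 1.26) that of Col in cdf2. In dcl1-9 it was 0.387 of that of Col (0.339 to 0.441), or 2.58-fold lower. Between the mutants, it was 3.21 times higher in cdf2 than in dcl1-9 (2.82 to 3.66). None of the intervals for these changes holds 1, but they leave out the spread between seedling samples, which 1 library per genotype cannot give. They also treat the counts as independent, although a read of the miR157d sequence can come from any MIR157 locus and may be counted in several entries.

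**Figure D4:**
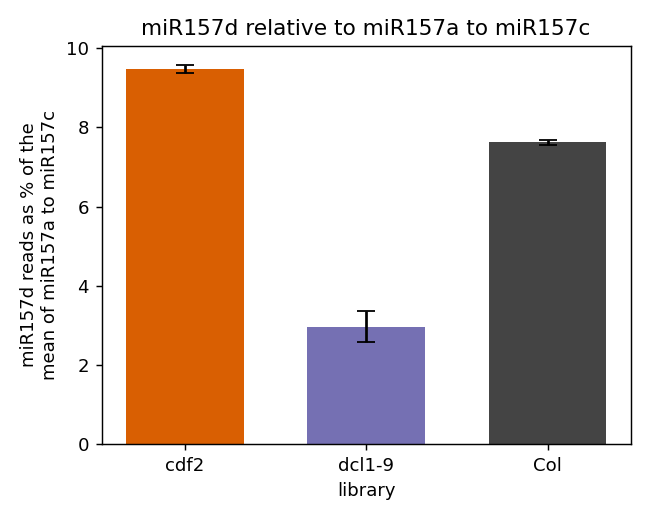
Reads of miR157d as a percentage of the mean of miR157a to miR157c in the cdf2, dcl1-9 and Col libraries (coloured bars from 0), with error bars for the 95% interval of counting error. The values are 9.48% in cdf2, 2.95% in dcl1-9 and 7.62% in Col, and the 3 intervals do not overlap.

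The difference between members was set beside the other families. For each of 24 families with several members at 100 or more Col reads, the highest ratio to Col was divided by the lowest. In cdf2 the miR157 family had 1.24, the 6th largest of the 24, against a median of 1.07. In dcl1-9 it had 2.59, the 7th largest, against a median of 1.41, although some families in that order held members at the floor of 3 reads, whose ratios are bounds. Without such members, a choice made after seeing the data, miR157 was the 4th largest of 18 families, against a median of 1.32. The miR156 family had the largest value at 33.6 in both orders. The miR157 family was thus above the median in both mutants and led in neither. The medians are a weak background, because some families hold entries with near-equal counts and so lie near 1. The miR447a and miR447b entries, for example, had 148 reads each in cdf2 and 182 each in Col. The miR165 value was 1.0004 in cdf2 and 1.01 in dcl1-9. Whether the entries of such families share a mature sequence was not tested.

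Within miR157a to miR157c, the counts differed mainly by a small surplus of miR157c. miR157c exceeded miR157a by 7358 reads in cdf2 and 90 in dcl1-9, against 11697 in Col. These surpluses were 1.85% (1.80 to 1.89) of the miR157c count in cdf2 and 1.14% (0.914 to 1.39) in dcl1-9, against 1.80% (1.77 to 1.84) in Col. The share was close to that of Col in cdf2, with overlapping intervals, and lower in dcl1-9. The mature sequences are identical, and the count entries do not show which reads make up the surplus.

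miR156 is the other family that pairs with the SPL messenger RNAs, and its members were also lower by RPM. In cdf2, 8 of 9 miR156 entries with Col reads were at least 1.5-fold lower than in Col, with a median ratio of 0.539 and a range of 0.468 to 0.705, beside 37% of all miRNAs given a ratio, while, with summed miRNA reads as the total, miR156g turned to 1.27 of Col and miR156h to just above Col. The call depended on the scale, since 2 of 9 passed with DESeq2 size factors and 0 of 9 with summed miRNA reads. miR156a to miR156f have 1 mature sequence, and all of them but miR156d have near-equal counts. Those entries cannot be taken as independent measurements, so the counts of miR156 entries overstate the evidence. In dcl1-9, 9 of 9 were lower, with a median ratio of 0.0305, as were 100% of all miRNAs given a ratio. With summed miRNA reads, DESeq2 size factors or TMM, 3 of 9 were 1.5-fold lower in dcl1-9. miR156a had 137240 reads in cdf2 and 8271 in dcl1-9, against 237043 in Col, and miR156c had the same counts. miR156d had the highest count of its family, with 267616 reads in cdf2 and 9154 in dcl1-9, against 532299 in Col. miR156h, which differs from miR157d by 1 base, had 31039 reads in cdf2 and 54 in dcl1-9, against 52026 in Col. That made miR156h 1097-fold lower in dcl1-9, beyond the 239-fold of miR157d. miR156g was scarce throughout, with 337 reads in cdf2 and 6 in dcl1-9, against 445 in Col.

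Summed over members, miR157 had 1218072 reads in cdf2 and 23833 in dcl1-9, against 1969884 in Col, counting reads shared by members each time they were listed. That was 23.2% of all miRNA reads in cdf2 and 6.29% in dcl1-9, against 22.3% in Col. The ratio of summed miR157 to summed miR156 reads was 1.24 in cdf2 and 0.472 in dcl1-9, against 1.11 in Col. It was thus 1.11 times the Col ratio in cdf2 and 0.424 of it (0.418 to 0.431) in dcl1-9. Member by member, miR157a exceeded miR156a 2.85-fold in cdf2 and stood at 0.948 of it in dcl1-9, against 2.69-fold in Col. miR157d relative to miR156a was 0.272 in cdf2 and 0.0280 in dcl1-9, against 0.206 in Col. Against miR156h, its nearest relative in sequence among the abundant members, miR157d was 1.20 in cdf2 and 4.30 in dcl1-9, against 0.938 in Col. The place of miR157d in dcl1-9 therefore depended on the member it was set against, being 7.34-fold lower than in Col relative to miR156a and 4.58-fold higher relative to miR156h.

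miR172 acts after the SPL factors and represses APETALA2-like transcription factors, which delay flowering. In cdf2, 0 of 5 miR172 entries passed 1.5-fold in either direction, with a median ratio of 1.13 and a range of 1.10 to 1.21, and all 5 turned below Col when genome-matched reads were the total. The scale decided these calls, since 5 of 5 were 1.5-fold higher with summed miRNA reads (1.98 to 2.19 of Col), 2 of 5 were higher with DESeq2 size factors, and 3 of 5 were lower with genome-matched reads. miR172a had 37394 reads in cdf2 and 190 in dcl1-9, against 31720 in Col. miR172b had the same counts as miR172a in cdf2 and Col, and miR172c and miR172d had near-equal counts. The 5 entries therefore cannot be taken as independent measurements. In dcl1-9, 5 of 5 miR172 entries were lower, with a median ratio of 0.00544, beside 100% of all miRNAs given a ratio. The ratio of summed miR172 to summed miR157 reads was 0.0631 in cdf2 and 0.0164 in dcl1-9, against 0.0330 in Col. This ratio needs no library total, and it was 1.91 times (1.89 to 1.93) the Col ratio in cdf2 and 0.497 of it (0.449 to 0.549) in dcl1-9.

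**Figure D5:**
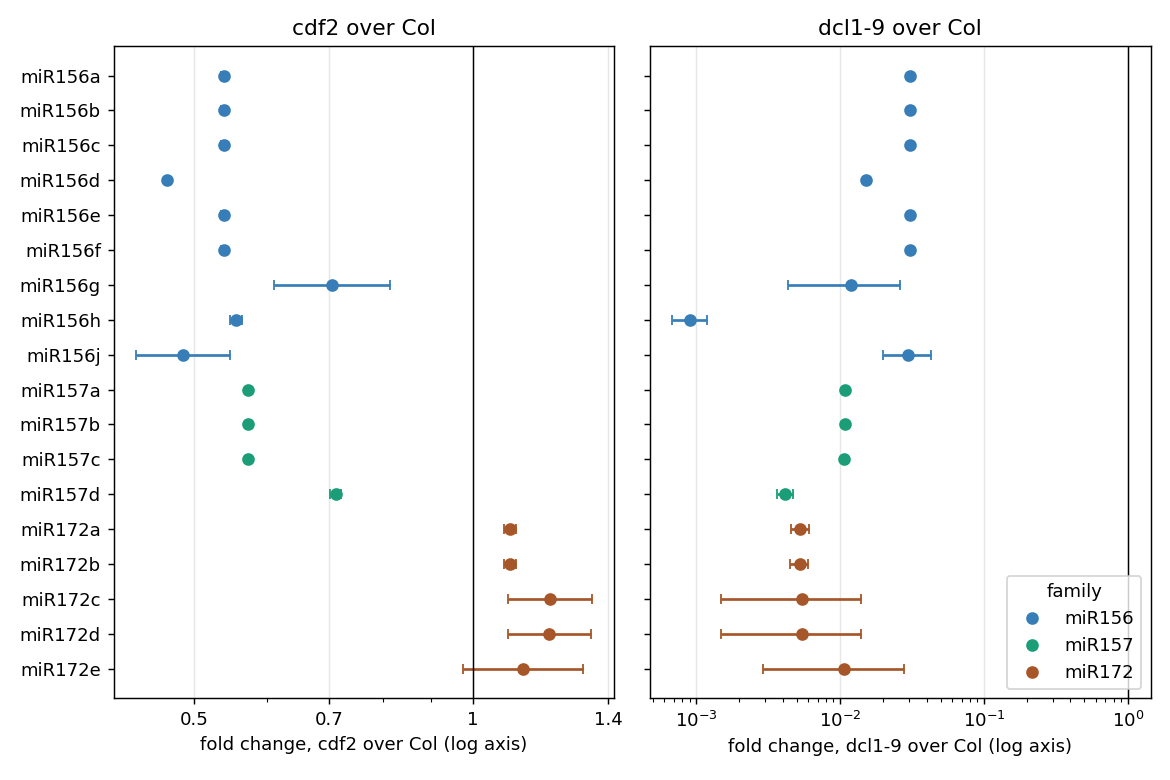
Ratio to Col in RPM (log axes) of miR157, miR156 and miR172 entries in cdf2 (left) and dcl1-9 (right), with bars for the 95% interval of counting error and lines at 1. miR172b* and miR156i, which has no Col reads, are not drawn. In cdf2 the miR172 entries, with a median of 1.13, lie right of the miR157 and miR156 entries, an order that every scale leaves as it is, although miR157 turns above 1 on the sum of miRNA reads and miR172 below 1 on genome-matched reads.

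The miRNAs most like each form in their ratios to Col were found by distance over the 2 log2 ratios, among 97 candidates outside miR156 and miR157 with at least 100 Col reads. Nearest to miR157a were miR163 (distance 0.0856), miR841b* (0.0961), miR167a (0.347), miR167b (0.347) and miR1886.2 (0.368). miR167, which targets auxin response factors, was the abundant one of these, with 233141 reads of miR167a in cdf2 and 3952 in dcl1-9, against 404544 in Col. miR163 had only 6 reads, miR841b* 4 and miR1886.2 0 in dcl1-9, so their places are uncertain. Nearest to miR157d were miR5026 (distance 0.318), miR158b (0.343), miR399c (0.435), miR159c (0.471) and miR162a (0.478). Of these, miR5026 was the best covered, with 9501 reads in cdf2 and 50 in dcl1-9, against 10024 in Col. miR162a, which targets the DCL1 messenger RNA itself, had 1587 reads in cdf2 and 7 in dcl1-9, against 2050 in Col. miR158b, miR399c and miR159c had 0, 1 and 1 reads in dcl1-9. The 2 sets share no miRNA. At these distances they could not, because miR157a and miR157d stood at log2 ratios of -6.53 and -7.90 in dcl1-9. A distance over 2 ratios that both use the same Col library describes these libraries only.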

How the data were processed

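Small RNAs of 22-day-old seedlings were sequenced by the authors on the Illumina platform, trimmed of adaptors and mapped with Bowtie (version not given in the sources used here) to miRBase 15 hairpins. The deposited values are raw counts of reads per miRNA, for which the study states version 16 of the miRNA database. The dcl1-9 library lists 338 entries against 328 for Col, some of them under later names. The authors also deposited tables with RPM values, which equal the counts over the totals in those tables (14406060 reads for cdf2, 9443719 for dcl1-9 and 14073145 for Col). Their columns of fold changes and p-values were not used.

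Here counts were divided by the total reads that the study states for each library. The alternative totals were summed miRNA reads, the deposited totals and the genome-matched reads of the study, which in Col are fewer than its miRNA reads. Others were DESeq2 1.42.0 size factors, edgeR 4.0.16 TMM factors, 1 added read, minimums of 10 and 100 reads, a 2-fold limit and other comparators. Of 328 Col entries, 306 were joined to dcl1-9, 14 through later names. Counts of 3 or fewer reads were set to a floor of 3, so such ratios are bounds, and miRNAs at or under the floor in both libraries were given no ratio. Intervals of ratios to Col are Clopper-Pearson intervals, and those of ratios within a library use the log method, treating counts as independent although members share reads. The intervals were tested on simulated data. The named miRNAs were miR157, miR156a to miR156h, miR172a to miR172e and the 5 nearest in pattern to miR157a and to miR157d. The counts of miR156 hold miR156j, and it and miR156i were named after their values were seen. The members and lists were chosen with earlier results of these data known. Sequences were read from TAIR10.1 (RefSeq). The labels name TAIR10, and the count tables hold no coordinates. Python 3.11.15, pandas 2.3.3 and scipy 1.17.1 were used.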

Additional observations from a re-analysis of the deposited data

How the results depend on the processing

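Across 110 recomputed values, 37 kept their value within counting error or, for counts of miRNAs, within 1.5 times, 68 moved and 5 reversed. The reversals were all in cdf2 with summed miRNA reads as the total, at 1.03 of Col for miR157a, miR157b, miR157c and their mean, and 1.29 for miR157d. For cdf2, the mean of miR157a to miR157c and miR157d were 0.326 and 0.405 of Col with genome-matched reads, 0.600 and 0.747 with deposited totals, 0.751 and 0.934 with DESeq2 size factors, and 0.678 and 0.844 with TMM. For dcl1-9 the same pair was 0.287 and 0.111 with the sum of miRNA reads, 0.0137 and 0.00529 with genome-matched reads, 0.0183 and 0.00708 with deposited totals, 0.330 and 0.128 with DESeq2 size factors, and 0.337 and 0.131 with TMM. miRNAs at least 1.5-fold lower in cdf2 numbered 91 of 246 (39 higher) with total reads and 18 (107 higher) with the sum of miRNA reads. They numbered 175 (7 higher) with genome-matched reads, 38 (72 higher) with DESeq2 size factors and 64 (51 higher) with TMM. At a 2-fold limit 38 were lower, and with at least 100 reads 46 of 140 were lower. In dcl1-9 they numbered 221 of 221 (0 higher) with total reads and 75 (107 higher) with the sum of miRNA reads. They numbered 71 (109 higher) with DESeq2 size factors and 70 (110 higher) with TMM. With at least 100 reads 120 of 120 were lower, so that count moved only because fewer miRNAs were tested. miR157d was 0.0936 of the highest other member in cdf2 and 0.0753 in Col, and 0.0316 of the sum of the others in cdf2 and 0.00983 in dcl1-9, against 0.0254 in Col. With the highest member for each family, miR157 held 24.5% of miRNA reads in cdf2 and 9.89% in dcl1-9, against 24.3% in Col. miR157 over miR156 was then 1.49 in cdf2 and 0.866 in dcl1-9, against 1.22 in Col, and miR172 over miR157 was 0.0938 in cdf2 and 0.0240 in dcl1-9, against 0.0489 in Col. The change of the miR157d ratio against Col stayed at 1.24 in cdf2 and between 0.386 and 0.389 in dcl1-9 under all its alternatives. These alternatives could hardly move it, since the sum is a fixed multiple of the mean and miR157a to miR157c have near-equal counts. Their place among the 37 kept values is therefore no check of stability. The cause of the differences between scales was not tested. No paired analysis was possible because each genotype has 1 library, and for the same reason no library could be left out. With 232 reads of miR157d in dcl1-9, counting error alone spans 211-fold to 274-fold, and assignment of shared reads to members was not tested.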

Other observations

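A pair of rarer miR156 members, named after their values were seen, lie on the strand opposite SPL target sites. The SPL9 site given above, at chr2:17589066-17589085 on the plus strand, covers the same bases as the annotated miR156j mature on the minus strand. miR156j had 447 reads in cdf2 and 29 in dcl1-9, against 854 in Col. By RPM its cdf2 value was 0.487 of Col. Over the other scales it ran from 0.277 with genome-matched reads to 0.881 with summed miRNA reads. The SPL4 site, at chr1:19807090-19807109, covers the bases of the miR156i mature in the same way. miR156i had 0 reads in cdf2 and 1 in dcl1-9, against 0 in Col. miR156j differs from miR157d by U11G alone, counted from the 5′ end with the miR157d base first.

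miR172b*, the passenger strand of the miR172b duplex, was also named after its values were seen. It had 3547 reads in cdf2 and 13 in dcl1-9, against 1275 in Col. By RPM its ratio to Col in cdf2 was 2.59, while miR172b itself stood at 1.10 of Col. With genome-matched reads the values were 1.47 for miR172b* and 0.625 for miR172b. With summed miRNA reads they were 4.68 and 1.98.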
